A study of Mus musculus with 6 samples.

Results

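A set of 10 transcription factors of the cranial neural crest was measured in the frontal head of mouse embryos that could or could not make retinoic acid. The set is *Twist1*, *Twist2*, *Tfap2a*, *Tfap2b*, *Sox9*, *Snai1*, *Snai2*, *Foxd3*, *Foxd1* and *Ets1*. They were chosen by gene name, each name matched 1 gene, and they make up 10 of the 26437 genes in the table. The study asked how loss of retinoic acid changes gene expression in the embryonic eye region. It compared E10 wild-type embryos (WT) with embryos of the same stage homozygous for a null allele of *Rdh10* (*Rdh10* KO), the enzyme that oxidizes retinol to retinaldehyde in the first step of retinoic acid synthesis. All mice had a mixed, outbred background (Black Swiss and C57BL/6). Carriers of 1 null allele were crossed to obtain the *Rdh10* KO embryos, and yolk sac DNA was typed by PCR. The parents of the WT embryos are not given in the sources used here. The tissue was the frontal part of the head with both optic vesicles, the frontonasal region and some adjoining forebrain, so it holds crest-derived mesenchyme beside ectoderm, neural tissue, vessels and blood. Each group had 3 libraries, each from a separate pool of 3 embryos, so a value is an average over 3 embryos and both the eye and the face.

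The WT libraries held 19089872, 17626842 and 20808237 reads on genes, and the *Rdh10* KO libraries 27101025, 18511484 and 16392777. Levels are given as normalized counts, which are reads on a gene divided by 1 size factor for its library. Apart from sums over several genes and the largest part of such a sum, levels of different genes were compared as RPKM, here the recovered reads per kilobase of exon, scaled to the reads on genes in the library. Differences between the groups are log2 fold changes of *Rdh10* KO over WT on the scale of log2(value + 0.1), tested with limma across the 22921 genes whose mean exceeded 0.5 normalized counts. A gene was called when its adjusted p (Benjamini-Hochberg over all genes tested) was under 0.05, and the study's log2 cut-off of 0.85 marked the larger changes.

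*Rdh10*, the targeted gene, had 399, 342 and 381 normalized counts in the WT libraries, and 183, 142 and 181 in those of *Rdh10* KO. All 3 *Rdh10* KO libraries lay below all WT libraries, at 45.1% of the WT mean, so the direction followed the labels in each library. The value covers the whole gene and cannot show whether the null allele was homozygous. On the log2 scale the difference was −1.16 (SE 0.13), with an adjusted p of 7.35e-05 by limma.

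Markers of the labelled tissue were present. All 20 markers of optic vesicle and retina and all 20 of forebrain had a mean above 10 normalized counts, led by *Aldh1a3* and *Sox2*, as did 38 of 43 genes of the cranial crest mesenchyme and 19 of 20 surface ectoderm markers, led by *Krt18*. Blood also entered the samples, and *Rdh10* KO replicate 1 stood apart from the rest in it. The summed level of 19 blood markers was 52557 normalized counts in that library, against 102659 to 159140 in the other 5, with the embryonic globin *Hbb-y* as the largest part. None of the blood markers was called in the main fit; none rose and 0 to 2 fell over the alternative settings, and 0 to 1 fell when single libraries were left out. The calls of the crest factors are given below also without that library.

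Neural crest cells arise at the border of the neural plate, lose their epithelial contacts and migrate into the face, where they form the mesenchyme around the eye, the frontonasal skeleton, glia of the cranial nerves and pigment cells. Border and specifier factors (such as AP-2, FOXD3 and SOX9) act while the cells are set aside, and the SNAIL factors can repress cadherin genes. TWIST1, ETS1 and the AP-2 proteins go on acting in the migrating cells and the facial mesenchyme. In the E10 face most of these factors mark mesenchyme and ectoderm rather than premigratory crest, and several are shared with other cell types. *Ets1* is also expressed in endothelium, *Tfap2a* and *Tfap2b* in surface ectoderm, *Sox9* in early cartilage and neural progenitors, and *Foxd1* in parts of the forebrain and retina.

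All 10 factors passed the filter on low values. In *Rdh10* KO 3 of them rose (*Snai2*, *Tfap2a* and *Ets1*), none fell by the limma test, and 7 were not called. Over all genes tested, 10.3% were called higher and 9.12% lower. *Snai2* alone also passed the log2 cut-off, which 2.41% of all genes did upward and 0.886% downward. In 3 factors (the same 3) every *Rdh10* KO library lay above every WT library, and in 2 (*Twist2* and *Tfap2b*) every *Rdh10* KO library lay below; 17.6% and 17.0% of all genes did so. At an unadjusted p under 0.05 there were 4 factors, the 3 called and *Tfap2b*, and edgeR and DESeq2 on the recovered reads also called none lower. The median log2 fold change of the 10 factors was 0.07, beside 0.0036 for all genes tested. For a single gene, 3 libraries against 3 cannot give an exact two-sided permutation p below 0.1, and each of the 5 factors without overlap reached that value. In these bulk samples, more cells that express a gene and more RNA per cell cannot be told apart.

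**Figure D1:**
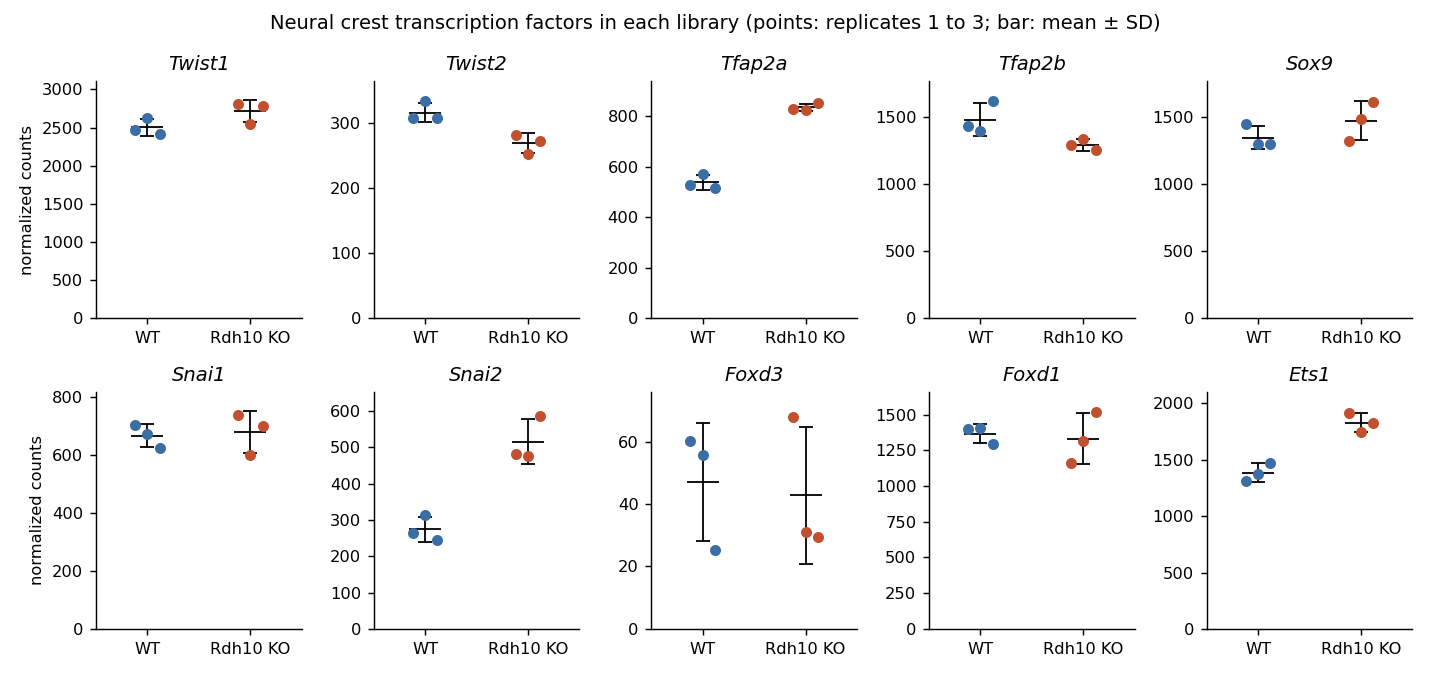
Normalized counts of the 10 factors in each library (y axis, from 0), with WT in blue and *Rdh10* KO in orange; the bars are the mean and SD of 3 libraries. *Snai2*, *Tfap2a* and *Ets1* show separate groups with *Rdh10* KO higher, *Twist2* and *Tfap2b* separate groups with *Rdh10* KO lower, and *Foxd3* the widest relative spread.

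TWIST1 and TWIST2 are basic helix-loop-helix proteins that bind E-boxes with an E-protein partner and keep mesenchyme undifferentiated. *Twist1* had 2469.6, 2632 and 2417 normalized counts in WT and 2807, 2547 and 2785 in *Rdh10* KO. The groups overlapped, since *Rdh10* KO replicate 2 fell within the WT range. Its log2 fold change was 0.11 (95% interval −0.04 to 0.27, adjusted p = 0.309, limma). *Twist2*, which follows *Twist1* in the dermal and facial mesenchyme, had 307, 333 and 307 normalized counts in WT and 281, 252 and 272 in *Rdh10* KO. All *Rdh10* KO libraries were below all WT libraries, but the gene was not called at −0.23 on the log2 scale (95% interval −0.47 to 0.01, adjusted p = 0.173, limma). An antisense gene that shares exon sequence with *Twist2*, *Gm29100*, had 14.4 normalized counts in WT and 16.0 in *Rdh10* KO on average. Within each library *Twist1* exceeded *Twist2* in RPKM by a factor of 15.7, 15.4 and 15.4 in WT and of 19.4, 19.7 and 19.98 in *Rdh10* KO. This ratio differed between the groups without overlap, as *Twist2* alone did, although neither gene was called alone. How often ratios of other gene pairs separate the groups was not tested, for this pair or for those below.

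TFAP2A and TFAP2B are AP-2 proteins, which bind GC-rich palindromes as dimers and act at the neural plate border, in the crest and in facial ectoderm. *Tfap2a* had 529, 569.8 and 513 normalized counts in the WT libraries. In the *Rdh10* KO libraries it had 826, 825 and 852. The groups were far apart, with the lowest *Rdh10* KO library above the highest WT library and an SD of 15.2 in *Rdh10* KO and 29.1 in WT. *Tfap2a* reached 155% of the WT mean, 0.64 higher on the log2 scale (SE 0.09, 95% interval 0.45 to 0.82, adjusted p = 0.000213, limma), and it stayed called in all 18 alternative settings. Its exons overlap 3 genes of the other strand. Of these *Gm26688* had 3.58 to 17.65 normalized counts in the 6 libraries and was not called, and *Gm47061* and *Gm47067* were not analysed here; whether reads were counted by strand is not given in the sources used here.

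*Tfap2b*, the closest relative of *Tfap2a* among the factors, had 1432, 1398 and 1622 normalized counts in WT and 1293, 1336 and 1253 in *Rdh10* KO. Every *Rdh10* KO library was below every WT library, and the mean was 87.2% of that in WT. Its log2 fold change of −0.20 (95% interval −0.37 to −0.02) had an unadjusted p of 0.0283 and an adjusted p of 0.108 with limma, so it was not called. The ratio of *Tfap2a* to *Tfap2b* in RPKM was 0.477, 0.527 and 0.409 in the WT libraries, and 0.826, 0.798 and 0.879 in those of *Rdh10* KO. *Tfap2b* remained the more abundant AP-2 gene in each of the 6 libraries. *Tfap2c*, a border relative named here after its values were seen, was not called (log2 fold change −0.11, adjusted p = 0.591, limma). Surface ectoderm, where AP-2 genes are also expressed, had a summed level over 20 markers of 10647, 10338 and 9719.6 normalized counts in WT and 11065, 9569 and 10739.5 in *Rdh10* KO. These sums overlapped at a ratio of 1.02, with 2 markers called higher and 1 lower (0 to 2 and 0 to 1 when single libraries were left out, and none in either direction without the intensity trend), none of the 20 at 0 and *Krt18* the largest part. The part of ectoderm in the *Tfap2a* result was not tested.

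Promoter sequences from RefSeq (GRCm38.p6), running from 250 bases before to 50 after a start site, were found for 7 of the 10 factors, with 2 starts for *Tfap2a*. *Snai2*, *Sox9* and *Ets1* had no entry. Shown are the promoters of *Tfap2a*, the called factor among the 7, and of *Tfap2b* and *Snai1*, relatives of called factors that were not called themselves. Capitals mark matches on either strand to the E-box CANNTG, its SNAIL form CAGGTG (which lies within it), the AP-2 motif GCCNNNGGC and the nuclear receptor half-site AGGTCA.
Tfap2a, start 1 (chr13:40734871-40735170, minus strand): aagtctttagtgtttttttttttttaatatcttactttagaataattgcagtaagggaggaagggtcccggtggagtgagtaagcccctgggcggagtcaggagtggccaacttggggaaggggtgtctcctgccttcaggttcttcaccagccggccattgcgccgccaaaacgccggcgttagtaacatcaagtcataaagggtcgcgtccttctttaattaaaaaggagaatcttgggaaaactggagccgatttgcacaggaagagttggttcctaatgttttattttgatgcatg
Tfap2a, start 2 (chr13:40733746-40734045, minus strand): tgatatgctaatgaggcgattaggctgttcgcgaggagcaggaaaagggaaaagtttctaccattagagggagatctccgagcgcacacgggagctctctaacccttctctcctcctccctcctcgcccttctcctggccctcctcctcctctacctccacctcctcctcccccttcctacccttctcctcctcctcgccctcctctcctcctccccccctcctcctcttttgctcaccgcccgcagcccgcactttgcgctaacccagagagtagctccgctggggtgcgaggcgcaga
Tfap2b (chr1:19211804-19212103, plus strand): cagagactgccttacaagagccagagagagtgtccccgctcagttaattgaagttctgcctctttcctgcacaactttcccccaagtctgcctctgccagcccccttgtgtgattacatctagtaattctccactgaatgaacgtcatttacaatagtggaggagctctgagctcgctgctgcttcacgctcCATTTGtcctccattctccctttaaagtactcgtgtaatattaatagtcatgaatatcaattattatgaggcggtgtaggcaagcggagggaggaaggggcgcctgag
Snai1 (chr2:167537945-167538244, plus strand): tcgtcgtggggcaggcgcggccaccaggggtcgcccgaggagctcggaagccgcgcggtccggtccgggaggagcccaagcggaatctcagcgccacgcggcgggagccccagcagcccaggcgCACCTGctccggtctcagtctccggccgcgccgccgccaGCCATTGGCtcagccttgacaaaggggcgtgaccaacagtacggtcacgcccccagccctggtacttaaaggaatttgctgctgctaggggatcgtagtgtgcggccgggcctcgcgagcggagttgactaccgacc

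Neither *Tfap2a* start had a match to any of these motifs. *Tfap2b* had 1 CANNTG. *Snai1* had 1 CAGGTG and 1 GCCNNNGGC. Among the 8 promoters of the factors, CAGGTG was found in 1, CANNTG in 4 (*Snai1*, *Tfap2b*, *Foxd1* and *Foxd3*), GCCNNNGGC in 2 (*Snai1* and *Twist2*) and AGGTCA in 0. Over all 32851 promoters of this length in the table, 20.2% held CAGGTG, 72.3% CANNTG, 16.6% GCCNNNGGC and 16.3% AGGTCA. Direct repeats of AGGTCA with 1, 2 or 5 bases between, the arrangement that retinoic acid receptors bind, were found in 0.0578% of all promoters and in none of the 8. Only exact matches were counted, so an element with a mismatch or outside these windows would be missed. These matches describe letters in short windows and say nothing of binding.

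SOX9, an SRY-related HMG-box protein, specifies crest and later drives cartilage genes. *Sox9* had 1446, 1295 and 1295 normalized counts in WT and 1319.65, 1486 and 1611 in *Rdh10* KO. The groups overlapped, with WT replicate 1 inside the *Rdh10* KO range. The log2 fold change was 0.13 (95% interval −0.06 to 0.32, adjusted p = 0.362, limma). Among 21 tested genes of the SOX9 and cartilage programme, 5 rose and none fell by limma, with a median log2 fold change of 0.12, or 0.04 with genes at the limit of detection set to their bound. *Col2a1*, the most abundant and a direct SOX9 target in cartilage, was not called at 0.04 on the log2 scale (adjusted p = 0.832, limma), nor was the link protein gene *Hapln1* at 0.26 (adjusted p = 0.188, limma; called in 2 of 18 alternative settings). The matrix proteoglycan gene *Bgn* had the one change beyond the cut-off, 1.43 (adjusted p = 8.51e-06, limma). *Matn1*, a cartilage matrilin, and *3110079O15Rik* were at the limit of detection in both groups. With single libraries left out, 1 to 4 genes of this list rose, and 1 without the intensity trend.

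SNAI1 and SNAI2 are zinc finger repressors that bind the E-box CAGGTG and can act on cadherin genes. *Snai1* had 706, 672 and 625 normalized counts in WT and 738, 599.5 and 700.04 in *Rdh10* KO. These ranges overlapped almost fully, and the log2 fold change was 0.02 (95% interval −0.19 to 0.23, adjusted p = 0.924, limma), with either sign when single libraries were left out (−0.04 to 0.11). *Snai2* (Slug) had 265, 313 and 244 normalized counts in the WT libraries. In the *Rdh10* KO libraries it had 483, 476 and 587. The lowest *Rdh10* KO library was well above the highest WT library. *Snai2* thus reached 188% of the WT mean, the largest difference among the 10 factors, with a log2 fold change of 0.91 (SE 0.12, 95% interval 0.64 to 1.18, adjusted p = 0.000226, limma).

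The position of *Snai2* past the log2 cut-off depended on single libraries. Its log2 fold change was 0.83 without WT replicate 3 and 0.81 without *Rdh10* KO replicate 3, and its adjusted p was 0.0515 with limma without the intensity trend, the highest of a range that reached down to 1.39e-09. The ratio of *Snai1* to *Snai2* in RPKM was 3.32, 2.68 and 3.19 in the WT libraries, and 1.91, 1.57 and 1.49 in those of *Rdh10* KO. *Snai1* was therefore the more abundant SNAIL gene in every library, by a smaller margin in *Rdh10* KO. The zinc finger and homeobox repressors *Zeb1* and *Zeb2*, which act on the same E-boxes and are named here after their values were seen, also rose, with log2 fold changes of 0.55 (adjusted p = 0.000116) and 0.56 (adjusted p = 0.000213, limma).

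**Figure D2:**
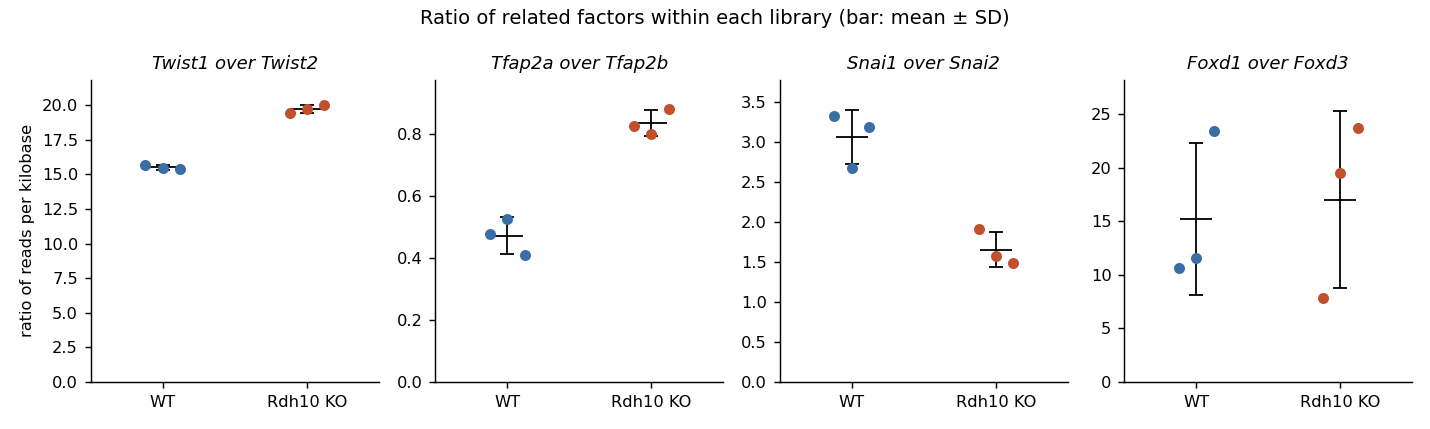
Ratio of reads per kilobase of exon between related factors within each library (y axis, from 0), with WT in blue, *Rdh10* KO in orange and bars for the mean and SD of 3 libraries. The *Twist1* to *Twist2* and *Tfap2a* to *Tfap2b* ratios are higher and the *Snai1* to *Snai2* ratio is lower in all *Rdh10* KO libraries, while the *Foxd1* to *Foxd3* ratio overlaps.

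FOXD3 and FOXD1 are forkhead proteins. FOXD3 acts in premigratory crest and its glial and pigment lineages, and *Foxd3* was the least abundant factor, with 60.4, 55.6 and 25.4 normalized counts in WT and 68.0, 30.9 and 29.4 in *Rdh10* KO. These rest on 59, 50 and 27 reads in WT and 95, 29 and 25 in *Rdh10* KO. Each group had high and low libraries, and the SD was 40.3% of the mean in WT and 51.1% in *Rdh10* KO. The log2 fold change of −0.15 had a 95% interval from −0.99 to 0.68 (adjusted p = 0.839, limma), so a change within these bounds was not excluded. It ranged from −0.55 to 0.07 when single libraries were left out. *Foxd1*, a marker of frontonasal and periocular mesenchyme as well as forebrain, had 1401, 1408 and 1294 normalized counts in WT and 1159.97, 1317 and 1519 in *Rdh10* KO. The *Rdh10* KO libraries lay on both sides of the WT range. The log2 fold change was −0.05 (95% interval −0.25 to 0.16, adjusted p = 0.798, limma), and 0.05 without *Rdh10* KO replicate 1. The ratio of *Foxd1* to *Foxd3* in RPKM was 10.6, 11.6 and 23.4 in WT and 7.83, 19.5 and 23.7 in *Rdh10* KO, with full overlap.

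ETS1, the founding ETS-domain factor, promotes delamination of the cranial crest in particular and is also used by angioblasts and endothelium. *Ets1* had 1308, 1378 and 1472 normalized counts in the WT libraries. In the *Rdh10* KO libraries it had 1918, 1745 and 1826. The groups did not overlap, and *Rdh10* KO reached 132% of the WT mean. The log2 fold change was 0.40 (SE 0.08, 95% interval 0.24 to 0.56, adjusted p = 0.00219, limma). The adjusted p was 0.0508 without WT replicate 2 and 0.0782 with limma without the intensity trend, the highest of a range that reached down to 4.23e-05. *Ets2*, its closest relative, and *Etv4*, an ETS gene downstream of FGF signals, are named after their values were seen: *Ets2* rose with a log2 fold change of 0.70 (adjusted p = 0.000142) and *Etv4* fell with one of −0.70 (adjusted p = 0.00127, limma).

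Of 20 endothelial markers 10 rose and none fell by limma, with a median log2 fold change of 0.38. Their summed level was 7684, 7999.99 and 7518 normalized counts in WT and 10346, 9848 and 10023 in *Rdh10* KO, with no overlap. The ratio of the means was 1.302, beside 1.32 for *Ets1*, 1.55 for *Tfap2a* and 1.88 for *Snai2*. The largest part of the sum, 12.9%, was the VEGF receptor gene *Kdr* (log2 fold change 0.71, adjusted p = 9.11e-05, limma), and none of the 20 was at 0. The part of vessels in the *Ets1*, *Snai2* and *Tfap2a* results was not tested. With limma without the intensity trend 3 of the 20 markers rose and none fell, and when single libraries were left out 5 to 6 rose and 0 to 1 fell. In the edgeR and DESeq2 tests, with a pseudocount of 1 and with quantile normalization 1 fell.

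**Figure D3:**
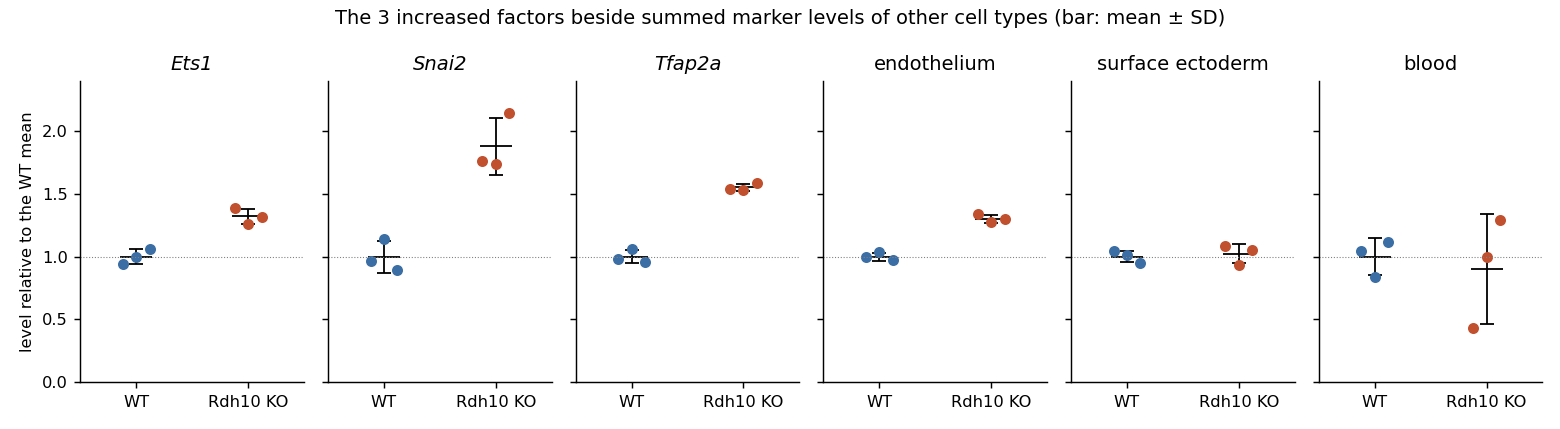
Levels of *Ets1*, *Snai2* and *Tfap2a* and the summed levels of endothelial, surface ectoderm and blood markers in each library, each divided by its WT mean (y axis, no unit); WT is blue, *Rdh10* KO is orange and bars are the mean and SD of 3 libraries. *Ets1* and the endothelial sum lie at similar ratios in *Rdh10* KO, *Snai2* and *Tfap2a* lie higher, and the blood sum is low in *Rdh10* KO replicate 1.

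Without *Rdh10* KO replicate 1, the library with little blood, all 3 factors were still called by limma. The log2 fold change was then 0.64 for *Tfap2a* (adjusted p = 0.00281), 0.95 for *Snai2* (adjusted p = 0.00408) and 0.37 for *Ets1* (adjusted p = 0.0151).

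**Figure D4:**
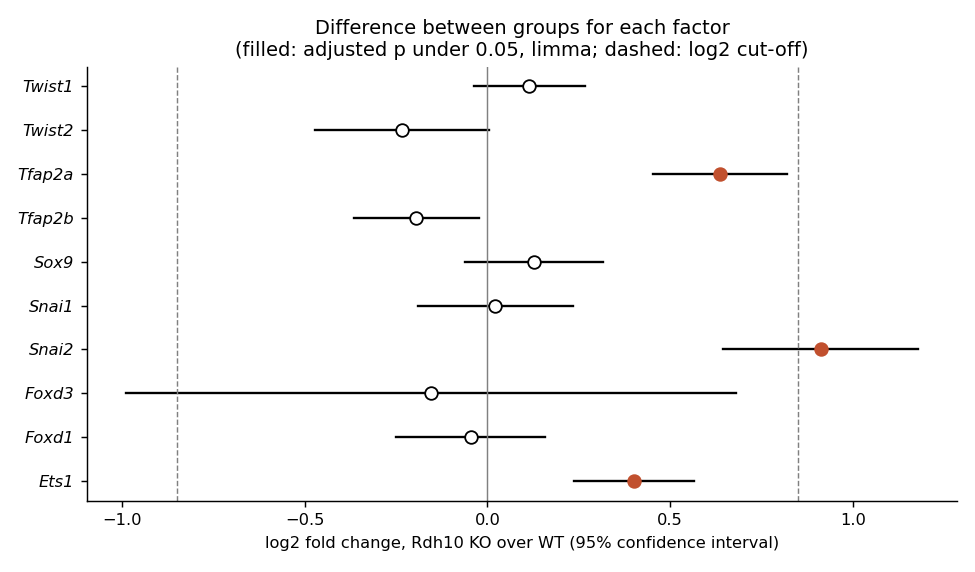
Log2 fold change of *Rdh10* KO over WT for each factor (x axis) with its 95% confidence interval from limma; filled points have an adjusted p under 0.05 and dashed lines mark the log2 cut-off of 0.85 in each direction. *Snai2* at 0.91, *Tfap2a* at 0.64 and *Ets1* at 0.40 are filled, and the interval of *Foxd3* is the widest.

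Per length, *Twist1* was by far the most abundant factor, at 78.7 ± 3.38 RPKM in WT and 85.6 ± 5.50 in *Rdh10* KO (SD, n = 3 each). In WT it was followed by *Snai1* at 21.1 RPKM, *Sox9* at 16.6, *Foxd1* at 13.8, *Tfap2b* at 11.96, *Ets1* at 8.36, *Snai2* at 6.93, *Tfap2a* at 5.60, *Twist2* at 5.08 and *Foxd3* at 1.04. Only *Foxd1* and *Tfap2b* overlapped as neighbours in the WT order. In *Rdh10* KO *Snai2*, at 13.1 RPKM, moved from rank 7 to 5 and overlapped *Foxd1* at 13.5, while *Tfap2b*, at 10.5, moved from rank 5 to 7 and overlapped *Ets1* at 11.1. *Snai1* and *Sox9* overlapped there too. The other 8 factors kept their ranks.

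Summed over the 10 factors, the level was 9923, 10053 and 9815 normalized counts in the WT libraries, and 10894, 10614 and 11434 in those of *Rdh10* KO. The *Rdh10* KO sums were all higher than the WT sums, but they include the 3 called factors. From WT to *Rdh10* KO, mean normalized counts went from 1386 to 1830 for *Ets1*, 537 to 834 for *Tfap2a* and 274 to 515 for *Snai2*. Of the 10 factors, 4 had a log2 fold change below 0, so the sums do not describe a rise of the whole set. WT replicate 3 was the lowest of its group for 8 of the 10 factors, and *Rdh10* KO replicate 2 for 6.

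The factors lie on separate chromosomes or far apart (GRCm38). *Twist1* is at chr12:33957671-33959829, *Twist2* at chr1:91801461-91848028, *Tfap2b* at chr1:19208914-19238576, *Sox9* at chr11:112782224-112787760, *Snai1* at chr2:167538195-167542814, *Snai2* at chr16:14705852-14709385, *Foxd3* at chr4:99656299-99658622, *Foxd1* at chr13:98354242-98359305 and *Ets1* at chr9:32636221-32757820, all on the plus strand. *Tfap2a* is on the minus strand at chr13:40715302-40738376. A small RNA gene, *Gm23366*, shares exon sequence with *Foxd3* on the same strand and was not analysed here.

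Genes that act before, beside and after the 10 factors were called in both directions. Of 14 neural plate border genes 2 rose and 3 fell (median log2 fold change 0.18). The repressor gene *Prdm1* rose at 1.21 (adjusted p = 0.00272), the homeobox gene *Msx1* fell at −0.77 (adjusted p = 1.32e-05), and *Zic1* was not called at −0.01 (adjusted p = 0.928, limma). Without WT replicates 1 and 2 in turn, *Prdm1* had an adjusted p of 0.0539 and 0.0514 (limma), and 0.0671 without the intensity trend. Of 22 other crest regulators 6 rose and 4 fell (median 0.05), with *Mef2c*, a MADS-box factor, at 1.002 (adjusted p = 6.72e-05) and the helix-loop-helix inhibitor gene *Id4* at −1.02 (adjusted p = 0.000211, and 0.0511 without WT replicate 1 and 0.0698 without the intensity trend, limma). Its relatives *Id1* and *Id3*, the most abundant per length of that list, were not called, though *Id1* was in 4 of 18 alternative settings. Of 22 family members and partners of the factors 5 rose and 3 fell (median 0.06). The E-protein gene *Tcf3*, which encodes a partner of TWIST1, was not called at −0.21 (adjusted p = 0.0803, but called with DESeq2), and the SNAIL corepressor gene *Ajuba* rose at 0.28 (adjusted p = 0.00863, limma). Without each WT library in turn the adjusted p of *Ajuba* was 0.0526 to 0.0814 (limma), and 0.114 without the intensity trend. When single libraries were left out, the calls on these lists came to 1 to 3 higher and 1 to 3 lower border genes, 3 to 4 higher and 0 to 4 lower regulators, and 2 to 5 higher and 1 to 3 lower relatives and partners. Without the intensity trend they came to 1 higher and 1 lower, 2 higher and 0 lower, and 2 higher and 1 lower.

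Some mesenchyme genes expressed beside *Twist1* and *Twist2* showed larger decreases than any of the 10 factors. Of 43 genes of the cranial crest mesenchyme 8 fell and 6 rose (median −0.08). The frontonasal homeobox genes *Alx1* (log2 fold change −1.43, adjusted p = 5.65e-07) and *Alx4* (−0.95), the homeobox gene *Six2* (−1.17, adjusted p = 3.58e-05) and the forkhead gene *Foxf1* (−1.14, adjusted p = 0.00687) fell beyond the cut-off by limma. Without each WT library or *Rdh10* KO replicate 2 in turn, the adjusted p of *Foxf1* was 0.0595 to 0.117 (limma), and 0.114 without the intensity trend. *Prrx2*, a homeobox gene of the same mesenchyme, was not called at −0.08 (adjusted p = 0.604, limma), beside *Twist1* at 0.11, and the fibrillar collagen gene *Col3a1* rose at 0.38 (adjusted p = 0.00282, and 0.0676 without WT replicate 1, 0.0539 without *Rdh10* KO replicate 3 and 0.11 without the intensity trend, limma). Leaving out single libraries gave 4 to 6 lower and 3 to 6 higher mesenchyme genes, and leaving out the intensity trend 4 lower and 1 higher.

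Of 28 genes of epithelial-mesenchymal transition and adhesion 9 rose and 2 fell (median 0.11). The 2 that fell were the claudin genes *Cldn6* (−0.47, adjusted p = 0.00721, limma) and *Cldn4* (−0.34, adjusted p = 0.0367, limma), both named after their values were seen. Fibronectin (*Fn1*) at 1.11 (adjusted p = 1.11e-05) and the adhesion molecule gene *Ncam1* at 0.99 (adjusted p = 0.000188, and 0.0606 without the intensity trend, limma) passed the cut-off, while the abundant *Vim* (0.16) and *Ctnnb1* (−0.18, called in 3 of 18 alternative settings) were not called. E-cadherin (*Cdh1*), a known target of SNAI1 and SNAI2 repression named after its values were seen, had 865 ± 63.4 normalized counts in WT and 1063 ± 102 in *Rdh10* KO (SD, n = 3 each). It rose by 0.30 on the log2 scale (adjusted p = 0.0386, limma), in the same direction as *Snai2*, but was called in 11 of 18 alternative settings only, and its adjusted p was 0.123 to 0.19 without WT replicate 1, 2 or 3 and 0.145 and 0.159 without *Rdh10* KO replicates 1 and 3, 0.0859 with a replicate block and 0.197 without the intensity trend (limma). With single libraries left out, 4 to 8 of the 28 genes rose and 0 to 2 fell, and without the intensity trend 2 rose and none fell.

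Of 32 signals and receptors of the crest 10 rose and 1 fell (median 0.26). *Edn1*, which encodes endothelin 1, rose at 1.43 (adjusted p = 0.00269) and *Wnt1* at 1.05 (adjusted p = 0.000444, limma), and *Cxcr4* (0.34, called in 5 of 18 alternative settings) and *Efnb1* (0.05), the most abundant per length, were not called. The adjusted p of *Edn1* was 0.0558 and 0.0531 without WT replicates 1 and 2 in turn and 0.0525 without the intensity trend (limma), where that of *Wnt1* was 0.0504. These counts moved with the setting. Leaving out single libraries gave 4 to 8 higher and 0 lower genes of the 32, limma without the intensity trend 1 and 0, and the filter at a mean above 10 and the edgeR and DESeq2 tests 16 to 17 higher and 1 to 2 lower. Of 23 markers of crest glia, melanoblasts and ganglia 3 fell and 1 rose (median 0.01). The pigment genes *Dct* (−3.46, adjusted p = 0.0006) and *Pmel* (−2.01, adjusted p = 0.00144) and the glial lipid-binding protein gene *Fabp7* (−0.83, adjusted p = 0.000188, limma) fell. *Dct* and *Pmel* are also expressed in the retinal pigment epithelium, which forms from the optic vesicle. *Dct* had 2.15 to 12.8 normalized counts in *Rdh10* KO, and without WT replicates 1 and 2 in turn the adjusted p was 0.0539 and 0.0564 for *Dct* and 0.0772 and 0.0814 for *Pmel* (limma). Without the intensity trend it was 0.0682 for *Dct*, 0.0923 for *Pmel* and 0.0628 for *Fabp7*, and none of this list fell and 1 rose. In the fits without single libraries, 1 to 4 fell and 1 rose. *Sox10*, the SOXE factor of crest glia and melanoblasts, chosen after its values were seen, was not called (log2 fold change −0.10, adjusted p = 0.789, limma) and overlapped between the groups like *Foxd3*. *Tubb3*, a neuronal tubulin gene, was not called at −0.27 (adjusted p = 0.115, limma).

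**Figure D5:**
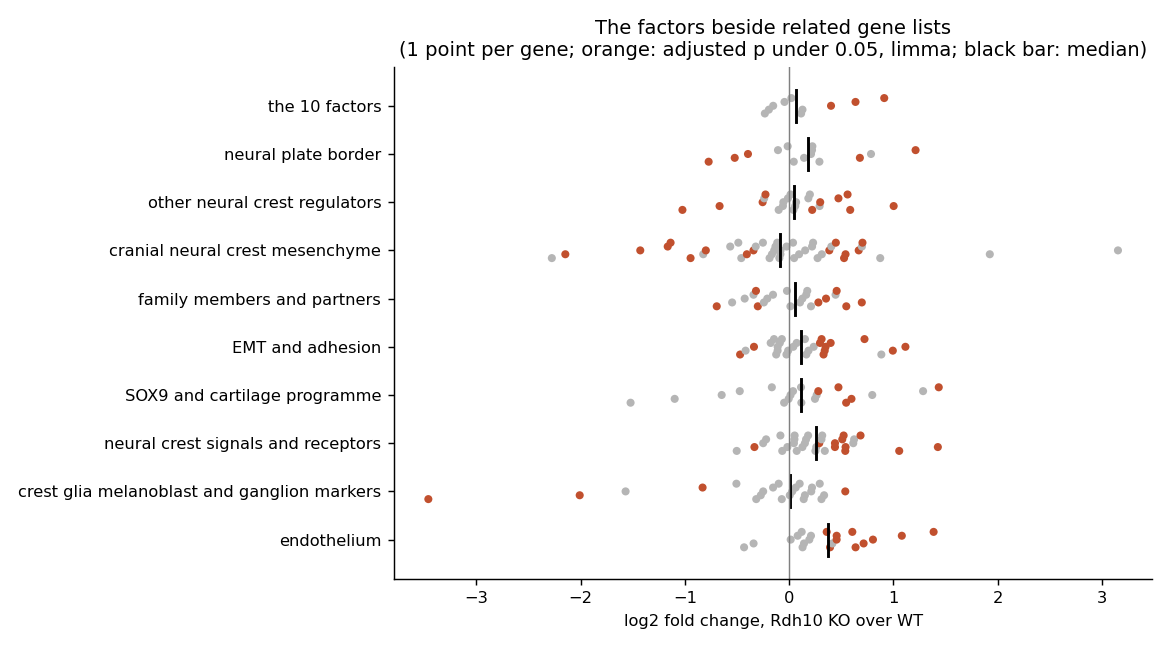
Log2 fold change of *Rdh10* KO over WT (x axis) for the 10 factors, 8 related gene lists and the endothelial markers, 1 point per gene, orange where the adjusted p from limma was under 0.05; black bars are the medians of the points drawn, and genes at the limit of detection in both groups are left out. The 10 factors have a median of 0.07 and 3 orange points, and the strongest decreases lie in the crest mesenchyme and the glia and melanoblast lists.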

How the data were processed

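Poly(A)-selected directional libraries came from 3 pools of 3 embryos in each group. According to the submitters' processing notes and the study's methods, reads were aligned to mm10 with TopHat; the methods add that abundance was estimated by Expectation–Maximization and normalized as FPKM, and the program used and annotation release are not given in the sources used here. The deposited signal is the authors' normalized value per gene. The planned design assumed FPKM too, but the deposited values are whole reads over 1 size factor for each library, with no division by gene length; whole reads were recovered for 100% of values in all 6 libraries, within 0.1 reads. Of 26438 lines 1 names no gene and was left out, and 26288 genes (99.4%) were found in GENCODE mouse release M21 (GRCm38), which gave positions and exon lengths.

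The test was limma 3.58.1 (R 4.3.3, intensity trend) on log2(value + 0.1) for genes with a mean above 0.5, without a replicate block. Counting tests on the recovered reads, edgeR 4.0.16 and DESeq2 1.42.0, and other pseudocounts, filters, scalings and left-out libraries were alternatives, and the scripts were tested on simulated data. A filter at a mean above 0.5 RPKM was added after seeing the data. Replicates of a group differed by more than counting noise (chi-square per degree of freedom 2.83 to 19.0), so none was the same library sequenced again. A comparison with counting noise cannot tell separate pools from separate libraries of the same pool. The limit of detection was 3 reads. Intervals are for the difference between group means and use limma's standard error, which also draws on genes of similar level. They do not give the range of single libraries.

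Named were all 10 factors, *Rdh10*, in each gene list the genes past both thresholds (at most the 6 most abundant) and the 2 most abundant per length, and for each cell type the marker with the most normalized counts and markers at 0; others are said to be chosen after their values were seen. 1 gene that met this rule is not reported here. The lists were neural plate border, other neural crest regulators, cranial neural crest mesenchyme, family members and partners, epithelial-mesenchymal transition and adhesion, SOX9 and cartilage programme, crest signals and receptors, crest glia, melanoblasts and ganglia, and markers of surface ectoderm, optic vesicle and retina, forebrain, endothelium, blood (1 of 20 names, *Ahsp*, not matched) and paraxial mesoderm and muscle. The factors and lists were chosen with earlier results of these data known. Python 3.11.15 was used with scipy 1.17.1, pandas 2.3.3, matplotlib 3.10.9 and numpy 2.4.6.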

Additional observations from a re-analysis of the deposited data

How the results depend on the processing

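*Tfap2a* was called in all 18 alternative settings, *Snai2* in 17 and *Ets1* in 16, and the other 7 factors in none. With limma without the intensity trend 1 factor rose in place of 3, and 0 passed the log2 cut-off in place of 1; over all genes that setting called 197 lower and 448 higher (69.5% higher) beside 2091 and 2360 (53.0%). Leaving out single libraries gave 2 to 3 factors higher and 0 to 1 past the cut-off, and over all genes 427 to 1895 lower and 850 to 1983 higher. The share called higher was 64.7% without WT replicate 1 and 66.6% without WT replicate 2. The cause was not tested.

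Log2 fold changes that turned sign when single libraries were left out ranged from −0.55 to 0.073 for *Foxd3*, −0.042 to 0.11 for *Snai1*, −0.14 to 0.050 for *Foxd1*, −0.085 to 0.021 for *Zic1*, −0.032 to 0.14 for *Col2a1*, −0.013 to 0.10 for *Efnb1*, −0.69 to 0.14 for *Hbb-y*, −0.18 to 0.0098 for *Id3* and −0.35 to 0.066 for *Sox10*; none of these was called. Quantile normalization and TMM scaling turned no factor's direction.

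No pairing by replicate number was seen. Deviations of same-numbered libraries correlated at −0.03, −0.03 and −0.07 across genes, and those of differently numbered libraries at −0.036 to 0.066. With deviations taken within only 3 libraries, these values cannot show whether same-numbered libraries were handled together. In the fit with a replicate block 3 factors rose and 1 passed the cut-off, as without it, and 1387 genes were lower and 1715 higher. *Foxd3* had the fewest reads, 25 to 95 in a library, and the widest interval.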

Other observations

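Markers of other tissues in the dissected frontal head were called in both directions. Of 20 optic vesicle and retina markers 2 rose and 3 fell by limma (median log2 fold change −0.08), and their summed level was 16119, 15600.5 and 16128 normalized counts in WT and 14230.4, 16975 and 17017.5 in *Rdh10* KO, with overlap. Leaving out single libraries gave 0 to 3 higher and 1 to 3 lower optic markers, and leaving out the intensity trend 0 higher and 2 lower. With quantile normalization 0 optic markers rose and 5 fell. Of 20 forebrain markers 3 rose and 3 fell (median −0.06), and 0 to 5 rose and 0 to 2 fell when single libraries were left out, with none in either direction without the intensity trend. Of 20 markers of paraxial mesoderm and muscle 2 rose and 2 fell (median 0.05), with *Nkx2-5* at the limit of detection and *Lhx2*, also an optic vesicle gene, as the largest part. Without single libraries 0 to 1 of these rose and 0 to 1 fell, and without the intensity trend 1 rose and none fell. Their summed level was 3606, 3476 and 3465 normalized counts in WT and 2669, 2915 and 3425 in *Rdh10* KO, all lower, at a ratio of 0.854. Without *Lhx2* it was 1849, 1827 and 1740 in WT and 2037, 1690 and 2168 in *Rdh10* KO, with overlap, at a ratio of 1.09. *Lhx2*, which made up 42.2% of that sum, had 1758, 1649 and 1724 normalized counts in WT and 632, 1226 and 1257 in *Rdh10* KO. All *Rdh10* KO libraries were below WT, *Rdh10* KO replicate 1 most of all, at −0.79 on the log2 scale (limma, adjusted p = 0.00939). This call was lost in 7 of the 18 alternative settings, which left out each WT library or *Rdh10* KO replicate 2 or 3, used DESeq2, or used limma without the intensity trend, with adjusted p-values of up to 0.198.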
